A study of Drosophila melanogaster with 6 samples.

Results

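Peptidoglycan recognition proteins (PGRPs) are the sensors with which flies detect the bacterial cell wall. The 7 genes described here, PGRP-SA, PGRP-SD, PGRP-LA, PGRP-LC, PGRP-LD, PGRP-LE and PGRP-LF, are the PGRP genes not classed as amidases, and they were taken from the deposited table by their FlyBase symbols. All 7 were found among 17558 genes, and the fly's other 6 PGRP genes are amidases. The libraries came from RNA of adult male Drosophila melanogaster, taken 12 h after the flies were injected with Micrococcus luteus, a Gram-positive bacterium. In the 3 overexpression libraries the flies carried Gal80ts, a temperature-sensitive repressor of Gal4, with the long non-coding RNA CR46018 driven by Tub, a tubulin promoter active in most tissues. In the 3 control libraries the flies carried the same Gal80ts with Tub-Gal4 over P{CaryP}attP40, an empty landing site. All flies were infected, and no uninfected level stands beside these values. By its title, the study asked how CR46018 acts on Toll and on Dif and Dorsal, the transcription factors at its end.

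As background, secreted PGRP-SA and PGRP-SD bind peptidoglycan in the hemolymph, and PGRP-SA with GNBP1 starts the protease cascade that activates Toll. PGRP-LC on the membrane and PGRP-LE inside the cell are the receptors of the Imd pathway, the other humoral arm of fly immunity, which responds to the peptidoglycan of Gram-negative bacteria. PGRP-LF is a membrane protein that binds PGRP-LC and restrains Imd, and PGRP-LA modulates Imd in barrier epithelia.

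The libraries yielded between 16204400 and 18686924 reads recovered from the deposited FPKM (fragments counted on a gene, per kilobase of its length and scaled to the library's size). CR46018 itself (asRNA:CR46018) had 3, 1 and 0 reads in overexpression replicates 1, 2 and 3, against 0 reads in each control library. These counts do not show its overexpression, so the group name used throughout rests on the labels alone. Why the counts were so low was not tested. The 9 matched testis markers summed to 1277 to 1371 FPKM in overexpression libraries, against 1229 to 1365 FPKM in control libraries. The 8 markers of the female fat body and ovary summed to 12.4 to 17.3 FPKM in overexpression libraries, against 38.3 to 40.9 FPKM in control libraries. The labels name neither the body parts sequenced nor the source of each replicate, so p-values reflect only how these libraries varied, which may be technical.

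Of the 7 genes, 6 were expressed above the filter, a mean of 1 FPKM over the 6 libraries, and all 6 had a higher mean in flies overexpressing CR46018. None of the 6 passed the test, however (limma, Benjamini-Hochberg adjusted p from 0.0812 to 0.407 over 12251 genes). At an unadjusted p under 0.05 (limma) there were 3, PGRP-SD, PGRP-LC and PGRP-LF. The share of all tested genes at that unadjusted p is not given, so unadjusted counts here and below are not read as results. At an adjusted p under 0.05 (limma), 2.45% of all tested genes were called higher and 6.31% lower. The median log2 difference of the 6 was 0.21, beside -0.0024 over all tested genes, and 49.4% of tested genes had a difference above 0. The overexpression libraries all lay above the control libraries for 5 of the 6 genes, all but PGRP-LA, beside 12.2% of all tested genes (16.2% had all overexpression libraries below all controls).

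The call depended on how libraries were scaled. The deposited FPKM totals were 646862 to 668227 in overexpression libraries and 694593 to 708815 in control libraries. Rescaling to a common total therefore raised overexpression values relative to controls. When every library was rescaled to the same FPKM total, 4 of the 6 passed as higher (PGRP-SA, PGRP-SD, PGRP-LC and PGRP-LF), with adjusted p from 0.0249 to 0.0492 (limma). Under that scaling the calls over all genes were 826 higher (6.74%) and 484 lower (3.95%), against 300 higher and 773 lower as deposited. With voom on recovered reads 2 of the 6 passed, PGRP-SD (adjusted p = 0.0242) and PGRP-LC (adjusted p = 0.0403), beside 3.96% of all genes called higher and 8.12% lower. Over the 14 alternatives the adjusted p ran from 0.0492 to 0.521 for PGRP-SA, from 0.0403 to 0.256 for PGRP-LC and from 0.0249 to 0.189 for PGRP-LF.

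**Figure D1:**
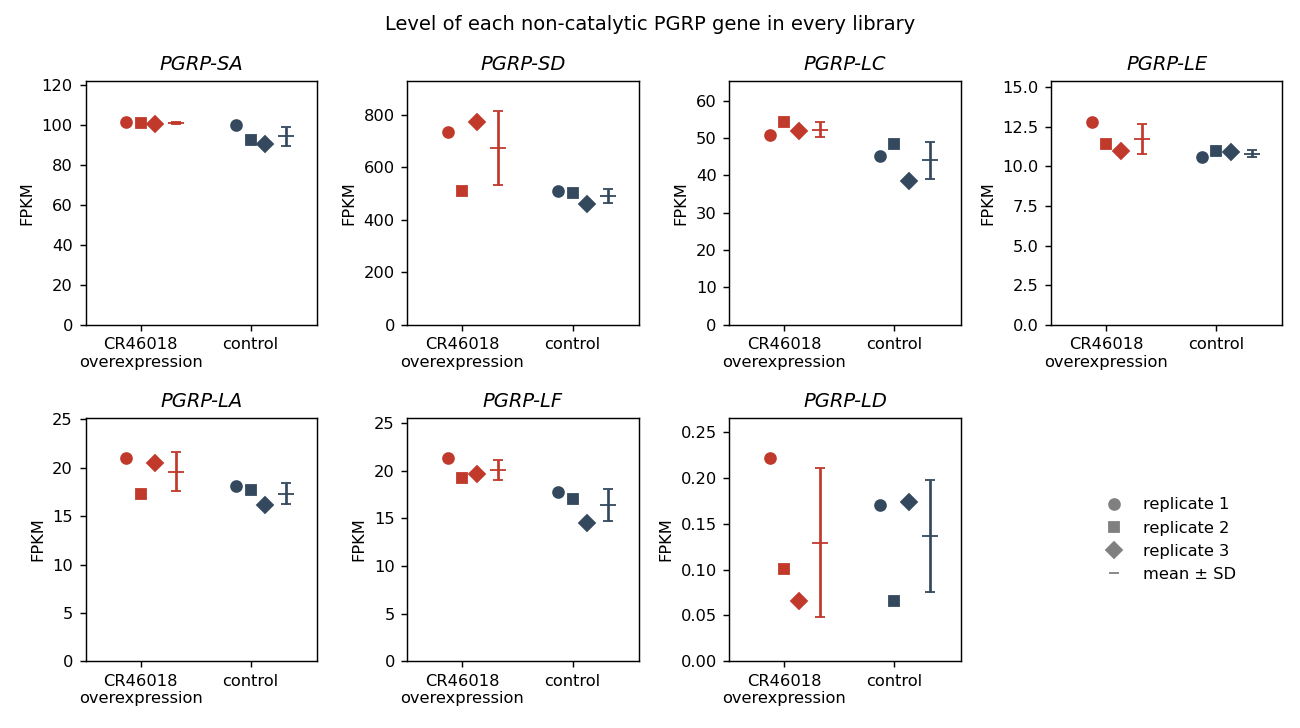
Level in FPKM (linear axes from 0) of each of the 7 genes in the 3 CR46018 overexpression libraries (red, left) and the 3 control libraries (dark, right), with marker shape for the replicate number and bars for mean ± SD. For PGRP-SD, overexpression replicate 2 at 510.7 FPKM sits beside the controls, and the other overexpression libraries sit above 700.

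Apart from PGRP-LA and PGRP-LF, the genes had the same order of level in every library. PGRP-SD was the most abundant at 461.3 to 773.4 FPKM over the 6 libraries, a mean level above that of 98.6% of tested genes. PGRP-SA followed at 90.9 to 101.8 FPKM and PGRP-LC at 38.5 to 54.4 FPKM. PGRP-LA (16.2 to 21.0 FPKM) and PGRP-LF (14.5 to 21.3 FPKM) had overlapping ranges, with PGRP-LA above PGRP-LF in 4 of 6 libraries, so their order did not exceed the spread. PGRP-LE lay clear below them at 10.6 to 12.8 FPKM, and PGRP-LD was at 0.066 to 0.221 FPKM. FPKM is a level per length, so these levels can be set beside each other, apart from those of PGRP-LD and PGRP-LF. Both share long exon stretches with other genes, and how reads in those stretches were counted is not stated.

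Of the secreted sensors, PGRP-SA, the Toll-activating sensor of Gram-positive peptidoglycan, is annotated in dm6 on X from 11561643 to 11562779. It measured 101.8, 101.1 and 100.8 FPKM in overexpression replicates 1, 2 and 3, against 100.03, 92.6 and 90.9 FPKM in control replicates 1, 2 and 3. The overexpression libraries were nearly identical, and control replicate 1 came within 1 FPKM of the lowest of them. The log2 difference was 0.10 ± 0.05 (SE, n = 3 per group, limma adjusted p = 0.308), and its 95% interval of -0.02 to 0.22 corresponds to a fold between 0.985 and 1.17. Each library held 1620 to 2133 PGRP-SA reads. The 95% exact Poisson interval of overexpression replicate 1 alone, 97.6 to 106.3 FPKM, was wider than the range of the 3 overexpression libraries.

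PGRP-SD is a secreted PGRP reported to assist PGRP-SA in sensing some Gram-positive bacteria and also to enhance Imd sensing. It is a single-exon gene of 721 bp on 3L (7651180 to 7651900), and 35 bp overlap CG7492 exons on the opposite strand. It measured 735 FPKM in overexpression replicate 1, 510.7 FPKM in replicate 2 and 773.4 FPKM in replicate 3, against 507.9, 500.9 and 461.3 FPKM in control replicates 1, 2 and 3. Overexpression replicate 2 was above the highest control library by under 3 FPKM, and the groups did not overlap. This gave the largest log2 difference of the 6 genes, 0.43 ± 0.14 (SE, n = 3 per group, 95% interval 0.10 to 0.77, limma adjusted p = 0.111). Without overexpression replicate 2 the log2 difference was 0.62 and passed (limma adjusted p = 0.00345; the 14 alternatives gave 0.00345 to 0.295).

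The level of PGRP-SD relative to PGRP-SA was 7.22, 5.05 and 7.67 in overexpression replicates 1, 2 and 3, against 5.08, 5.41 and 5.08 in control replicates 1, 2 and 3. The groups overlapped, because overexpression replicate 2 had the lowest ratio of all 6 libraries. That library was also the lowest of its group for 3 of the 6 genes, PGRP-SD, PGRP-LA and PGRP-LF. Its summed Imd-class peptide level was also the lowest of the overexpression group, at 38672 FPKM, beside 45042 in replicate 1 and 41549 in replicate 3. The control sums, 34284 to 41737 FPKM, overlapped these. The same held for its Toll-class peptide sum, at 25576 FPKM, beside 30306 in replicate 1 and 28609 in replicate 3. Its FPKM total over all genes was the lowest of the group as well, at 646862, beside 668227 in replicate 1 and 658077 in replicate 3. Among tissue marker sums, its photoreceptor sum was the lowest, at 3082 FPKM, beside 3839 in replicate 1 and 3842 in replicate 3. Its nervous system, midgut and female marker sums were the lowest too. Its fat body, muscle, Malpighian tubule, testis and accessory gland sums were the highest of the group.

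Of the Imd receptors, PGRP-LC, the membrane receptor, was annotated on 3L from 9338810 to 9348336 with 10 transcripts, some of which differ in their ectodomain. The table gives 1 value per gene with no split by transcript. It measured 50.7, 54.4 and 51.8 FPKM in overexpression replicates 1, 2 and 3, against 45.3, 48.3 and 38.5 FPKM in control replicates 1, 2 and 3. All overexpression libraries were above all control libraries, and control replicate 3 was the lowest. The log2 difference was 0.25 ± 0.08 (SE, n = 3 per group, 95% interval 0.06 to 0.44, limma adjusted p = 0.116). Without control replicate 3 it was 0.16. The deposited PGRP-LC values fell on whole reads at a length of 3619 bp, while the annotation used here gives 3743 bp, so the authors' gene model was not the same.

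PGRP-LE, the intracellular receptor, lies on X from 15801153 to 15803880. It measured 12.8, 11.4 and 11.0 FPKM in overexpression replicates 1, 2 and 3, against 10.6, 10.96 and 10.9 FPKM in control replicates 1, 2 and 3. The lowest overexpression library exceeded the highest control library by less than 0.1 FPKM. The log2 difference was 0.11 ± 0.07 (SE, n = 3 per group, limma adjusted p = 0.407), with a 95% interval of -0.05 to 0.27. Without overexpression replicate 1 it was 0.05.

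Of the modulators, PGRP-LF, the membrane protein that restrains PGRP-LC, measured 21.3, 19.3 and 19.6 FPKM in overexpression replicates 1, 2 and 3, against 17.8, 17.0 and 14.5 FPKM in control replicates 1, 2 and 3. The groups did not overlap. With a log2 difference of 0.28 ± 0.08 (SE, n = 3 per group, 95% interval 0.09 to 0.47), PGRP-LF had the lowest adjusted p of the 6 genes, 0.0812 (limma). Of its 1355 bp of exon on 3L (9349609 to 9351489), 602 bp also lie in exons of UGP on the opposite strand, and whether counting used strand is not stated in the labels. UGP, named for UDP-glucose pyrophosphorylase, fell to 69.6 ± 3.0 FPKM in overexpressing flies, against 86.6 ± 4.30 FPKM in controls (SD, n = 3, limma adjusted p = 0.0157), opposite to PGRP-LF. How reads in the shared stretch were divided was not tested.

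PGRP-LA, a modulator of Imd in the gut and trachea, measured 21.0, 17.3 and 20.5 FPKM in overexpression replicates 1, 2 and 3, against 18.1, 17.7 and 16.2 FPKM in control replicates 1, 2 and 3. Overexpression replicate 2 lay inside the control range, so the groups overlapped. The log2 difference was 0.16 ± 0.08 (SE, n = 3 per group, 95% interval -0.03 to 0.36, limma adjusted p = 0.293), and 0.25 without overexpression replicate 2.

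PGRP-LD was below the filter and was not tested. It had 18, 8 and 5 reads in overexpression replicates 1, 2 and 3, against 13, 5 and 12 reads in control replicates 1, 2 and 3. The sums were 31 reads in overexpression libraries (95% exact Poisson interval 21.1 to 44.0) and 30 reads in control libraries (20.2 to 42.8), intervals that cover counting error only, so no difference was detectable at this depth. PGRP-LD spans 5780051 to 5784685 on 3L, and the gene Pmi has the same start and end on the same strand. Of the 3957 bp of PGRP-LD exon, 3563 bp are also exon of Pmi, and only 394 bp are free of any exon on the same strand. On the opposite strand, 1323 bp lie in exons of Cralbp and 510 bp in those of asRNA:CR45026. Only 274 bp are free of exons on either strand. Cralbp was at 0.071 to 0.311 FPKM over the 6 libraries, and asRNA:CR45026 was at 0 in all of them. Pmi was at 0.013 FPKM in overexpression replicate 1 and at 0 in the other 5 libraries. The labels do not say how reads that fall in more than 1 gene were counted, so the low PGRP-LD value may not measure its expression.

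**Figure D2:**
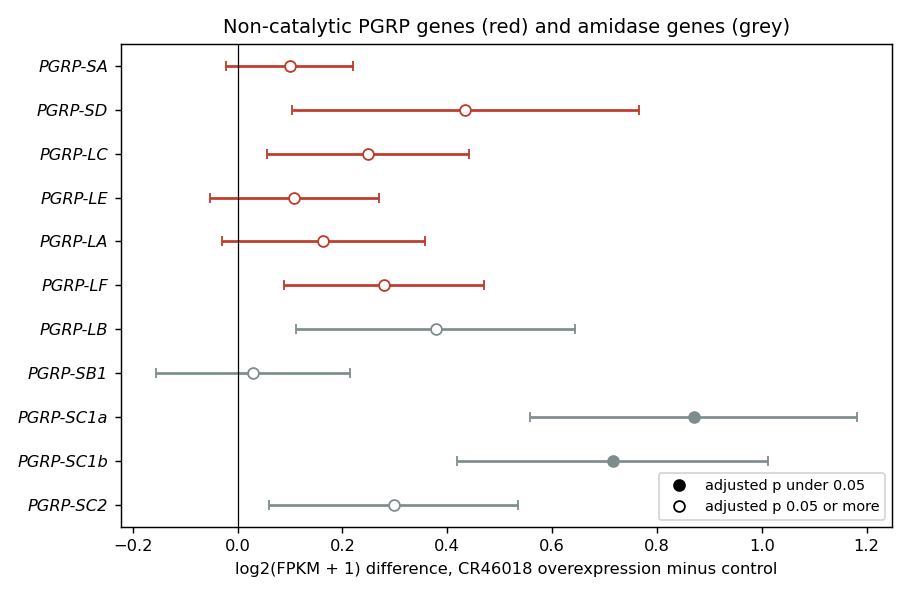
Difference in log2(FPKM + 1), CR46018 overexpression minus control, with its 95% interval from limma, for the 6 tested non-catalytic PGRP genes (red) and the 5 tested amidase genes (grey). Filled points passed an adjusted p of 0.05. All 11 point estimates are above 0, from 0.03 for PGRP-SB1 to 0.87 for PGRP-SC1a, and 2 amidase genes passed.

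PGRP-LA, PGRP-LC and PGRP-LF are neighbours on the plus strand of 3L, separated by 473 bp and 1272 bp with 0 genes wholly between. PGRP-LF stood at 0.420, 0.354 and 0.379 of the PGRP-LC level in overexpression replicates 1, 2 and 3, against 0.392, 0.352 and 0.377 in control replicates 1, 2 and 3. The means were 0.385 ± 0.033 in overexpressing flies and 0.374 ± 0.020 in controls (SD, n = 3), a difference smaller than the spread within either group. PGRP-LA stood at 0.376 ± 0.051 of PGRP-LC in overexpressing flies and 0.396 ± 0.027 in controls (SD, n = 3), with overlapping groups.

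The genes around the cluster were read out with a window of 50000 bp, chosen after the values were seen. Around PGRP-LF, UGP was the only 1 of 16 other tested genes to be called by limma, and the median log2 difference of the 16 was 0.077. Of the 16, 13 had a difference above 0, beside 49.4% of all tested genes. An unadjusted p under 0.05 (limma) was reached by 5 of the 16, and voom called 2. No share over all tested genes stands beside the unadjusted counts of these windows. Around PGRP-LE on X, 5 of 27 were called by limma, beside 8.76% of all tested genes in either direction. Voom called 8 of them, beside 3.96% of all genes higher and 8.12% lower. Around PGRP-SA, also on X, 0 of 15 were called by limma, with 3 at an unadjusted p under 0.05 and 1 by voom. Around PGRP-SD 0 of 6 were called by limma, with 1 at an unadjusted p under 0.05 and 0 by voom. Around PGRP-LD 1 of 18, the chaperone gene DnaJ-1, was called lower. The genes in these windows are named for their calls. Near PGRP-LE, CG8565 was higher, at 75.1 ± 3.56 FPKM in overexpressing flies and 61.7 ± 3.12 FPKM in controls (SD, n = 3). The other 4 were lower. They included sordd2, at 8.46 ± 2.59 FPKM in overexpressing flies and 30.8 ± 1.39 FPKM in controls, and sun, at 382 ± 25.6 FPKM in overexpressing flies and 609 ± 23.0 FPKM in controls (SD, n = 3). The rest were CG15602 and CR44383, and adjusted p ran from 0.00122 to 0.0267 for the 5 genes (limma). The flies differ by transgene, and effects of overexpression and of genetic background cannot be told apart.

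Control replicate 3 was the lowest control library for 5 of the 6 genes, all but PGRP-LE. Leaving it out lowered the log2 difference of PGRP-LC to 0.16 and that of PGRP-LF to 0.20. No gene changed direction in any of the 14 alternatives tried, a total of 84 values that were all above 0. The filter settings and the replicate block cannot change a difference, so the signs of those values were fixed in advance. Leave-one-out values share libraries, so the 84 are not independent.

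**Figure D3:**
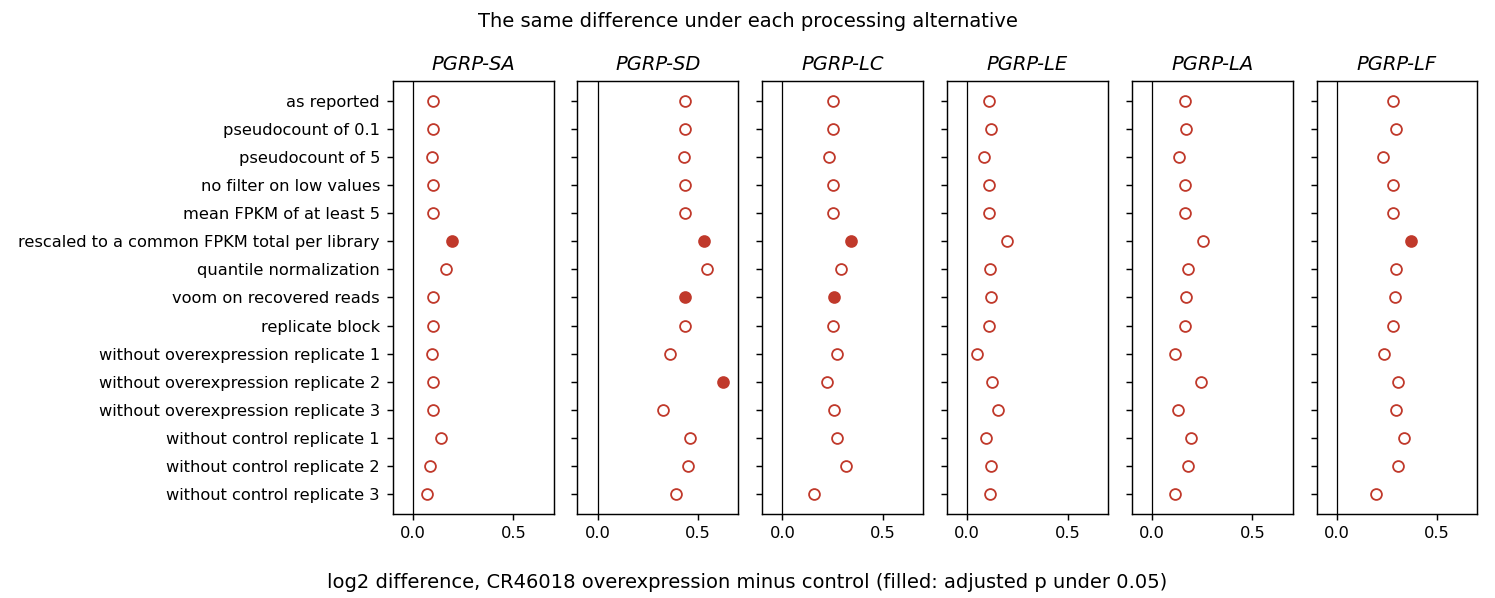
Log2 difference, CR46018 overexpression minus control, of each of the 6 tested genes as reported and under 14 processing alternatives. Filled points passed an adjusted p of 0.05. All points are above 0, and 7 of the 84 alternative values passed, 4 of them after rescaling to a common total.

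The genes whose profile over the 6 libraries was most like that of a member were found by the root mean square difference of log2(FPKM + 1) after centring each gene on its mean. Closest to PGRP-SA were thoc5 (0.014) and Hpr1 (0.017), both named for subunits of the THO complex, which acts in mRNA export. Closest to PGRP-SD were CG42867 (0.052) and CG9733 (0.079), to PGRP-LA CG17167 (0.033) and Oatp33Ea (0.034), and to PGRP-LC lncRNA:CR41443 (0.035) and Fem-1 (0.047). Closest to PGRP-LF were CheB42c (0.035) and RIOK1 (0.040), and to PGRP-LE Sf3b1 (0.025) and FBgn0010812 (0.026), which has no symbol in the table used. CG42867 followed PGRP-SD library by library, at 8.66, 5.70 and 9.45 FPKM in overexpression replicates 1, 2 and 3, against 5.58, 5.61 and 4.56 FPKM in control replicates 1, 2 and 3. With only 6 libraries and 12251 genes, near matches of this size describe these libraries and no more.

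The other PGRP genes, the amidases that cleave peptidoglycan and dampen the response, were read out of the same fit. Of 5 tested, 2 rose and 3 did not pass, with a median log2 difference of 0.38. PGRP-SC1a rose to 3.49 ± 0.627 FPKM in overexpressing flies, against 1.45 ± 0.265 FPKM in controls (SD, n = 3, limma adjusted p = 0.00771), and PGRP-SC1b rose to 4.92 ± 0.858 FPKM, against 2.59 ± 0.380 FPKM in controls (adjusted p = 0.0139). These are near-identical copies, so reads may be split between the genes. PGRP-SC1b missed the threshold without control replicate 2 (adjusted p = 0.0501; 13 alternatives gave 0.00341 to 0.0501). PGRP-LB, which degrades Gram-negative peptidoglycan, measured 123 ± 14.2 FPKM in overexpressing flies and 94.9 ± 13.4 FPKM in controls (SD, n = 3, limma adjusted p = 0.0887). With voom, quantile normalization or rescaling to a common total, 4 amidases passed. With a minimum mean of 5 FPKM, which left out PGRP-SC1a and PGRP-SC1b, 0 passed. PGRP-SB2 was below the filter.

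In the GNBP family, which holds a partner of PGRP-SA, all 4 genes had a negative difference, and 1, the glucan sensor GNBP3, fell (log2 difference -0.43, limma adjusted p = 0.00474). GNBP1, the partner of PGRP-SA, measured 11.3 ± 0.487 FPKM in overexpressing flies and 13.03 ± 0.461 FPKM in controls (SD, n = 3, adjusted p = 0.110), with groups that did not overlap and a direction opposite to that of PGRP-SA. Of 10 genes of the extracellular Toll cascade, 1 rose and 3 fell (median -0.088). The protease gene psh (log2 difference -0.58, limma adjusted p = 0.00131) and modSP, the protease that acts just below the sensors (-0.34, adjusted p = 0.00935), fell. The serine protease gene spirit rose (0.35, adjusted p = 0.0245), but it missed the threshold without overexpression replicate 1 or 3 or control replicate 2 or 3, and over 14 alternatives its adjusted p ran from 0.0036 to 0.0789. Of 10 genes of the Toll receptor and its intracellular pathway, 0 passed by limma, while 1 had an unadjusted p under 0.05 (median -0.047). Voom called 1 lower, dl, and without overexpression replicate 2 limma called 1 higher, cact, both named after their values were seen.

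Downstream of PGRP-LC and PGRP-LE, 2 of 15 intracellular Imd genes rose and 13 did not pass (median 0.10). Those that rose were Diap2, a ubiquitin ligase of the pathway (log2 difference 0.28, limma adjusted p = 0.0134), and pirk, a negative regulator that binds PGRP-LC (0.43, adjusted p = 0.0146). Diap2 missed the threshold without control replicate 1 (adjusted p = 0.0573; 14 alternatives gave 0.00315 to 0.0573). Without overexpression replicate 3 or control replicate 1 or 2, pirk missed it too, and its adjusted p ran from 0.00116 to 0.053 over 14 alternatives. After rescaling to a common total 4 of the 15 passed.

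**Figure D4:**
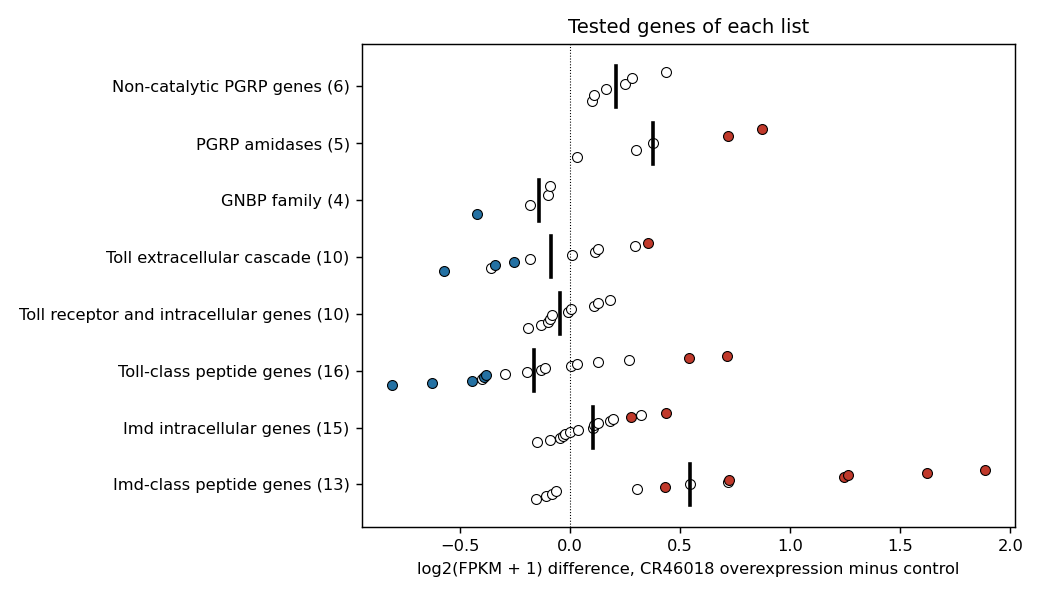
Difference in log2(FPKM + 1), CR46018 overexpression minus control, of each tested gene in 8 lists, with the number tested in brackets. Red points passed an adjusted p of 0.05 as higher, blue points as lower and open points did not pass, and the black bar is the list median, which is 0.21 for the non-catalytic PGRP genes and 0.54 for the Imd-class peptide genes.

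Of 13 Imd-class antimicrobial peptide genes 6 rose and 7 did not pass (median 0.54). Those with the smallest p were the cecropin gene CecA2 (log2 difference 1.88, limma adjusted p = 0.000289), the defensin gene Def (1.62, adjusted p = 0.00302) and edin (0.72, adjusted p = 0.00492). Of the 13, 9 had a difference above 0. DptA (-0.11), DptB (-0.083), Dro (-0.15) and AttA (-0.065) were below 0 and did not pass, and are named after their values were seen. Of 16 Toll-class peptide genes tested, 2 rose and 5 fell (median -0.16). The Bomanin genes BomS6 (-0.81, adjusted p = 0.00508) and BomT3 (-0.63, adjusted p = 0.00695) fell and the Daisho gene Dso2 (0.71, adjusted p = 0.0123) rose (limma). Of the Toll-class genes, 2 fell without overexpression replicate 2, control replicate 1 or control replicate 3, and 3 fell without overexpression replicate 3 or control replicate 2. After rescaling to a common total, or with no filter, 2 fell. The number that rose was 1 with the replicate block and without overexpression replicate 1 or 2 or control replicate 1 or 2. No test set these lists against each other or against the PGRP genes.

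Markers of several tissues were read beside the PGRP genes. In bulk libraries fewer cells of a type and less RNA per cell cannot be told apart. Of 5 tested trachea markers 4 fell, and the summed level of 5 matched markers was 62.2 to 67.9 FPKM in overexpression libraries, against 85.7 to 94.6 FPKM in control libraries. Of 6 tested fat body markers 3 fell, with a sum over 9 matched markers of 61.7 to 90.6 FPKM in overexpression libraries, against 160.4 to 248.4 FPKM in control libraries. Of 9 tested hemocyte markers 4 fell, with a sum over 10 of 102 to 129 FPKM in overexpression libraries, against 161.6 to 174.5 FPKM in control libraries. Of 11 tested muscle markers 6 fell, with a sum over 11 of 1957 to 2188 FPKM in overexpression libraries, against 2484 to 3178 FPKM in control libraries. Of 8 tested Malpighian tubule markers 1, Uro, rose, with a sum over 8 of 172 to 181.5 FPKM in overexpression libraries, against 158 to 159.6 FPKM in control libraries (median log2 difference -0.037). Of 11 tested midgut markers betaTry rose and Mal-A1 fell (median -0.0034), with a sum over 12 of 9234 to 9725 FPKM in overexpression libraries, against 7215 to 8634 FPKM in control libraries. No marker of these lists was at 0 in all libraries. The sums of trachea, fat body, hemocyte and muscle markers were lower in every overexpression library than in every control library. Those of Malpighian tubule, midgut and photoreceptor markers were higher. The photoreceptor sum was 3082 to 3842 FPKM in overexpression libraries, against 3026 to 3080 FPKM in control libraries, with 0 of 8 tested markers called. Nervous system and accessory gland sums overlapped between the groups. Uro, betaTry and Mal-A1 were named after their values were seen. The part of these markers in the PGRP result was not tested.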

How the data were processed

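Per the labels' protocols, polyadenylated RNA was sequenced in paired ends, aligned with HISAT2 2.0.5 and counted per gene with featureCounts 1.5.0-p3, and per the submitters' processing notes the build was dm6. The deposited values are FPKM, with 1 column per library. How counts became FPKM, which annotation release was used and whether strand was used are not stated in the labels. Gene names came from a FlyBase identifier table (17252 of 17558 matched), and coordinates and exonic lengths from Ensembl's annotation of the same assembly. FPKM multiplied by length gave whole reads, within 0.01, in all 6 libraries for 97.6% of the 15683 genes above 0 with a length. For 615 other genes, each with 100 or more reads, the shortest length giving whole reads in every library was used.

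The test was limma 3.58.1 in R 4.3.3, two-sided with a mean-variance trend, on log2(FPKM + 1), a scale that understates changes of low genes. Genes averaging at least 1 FPKM over the 6 libraries entered it. P-values were adjusted over all tested genes, with a threshold of 0.05, and intervals are at 95%. The fit was tested on simulated data. Replicates differed beyond sampling noise (chi-square per degree of freedom 6.82 to 9.86 over genes averaging at least 50 reads) and were kept apart. The text names the 7 members, up to 3 called genes of each pathway list, the 2 genes most like each tested member and genes sharing exons with a member. Members and lists were chosen with earlier results of these data known. Drs and BaraA2 of the Toll-class list were not matched by name and are not analysed here.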

Additional observations from a re-analysis of the deposited data

How the results depend on the processing

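Tried were a pseudocount of 0.1 or 5, all genes unfiltered, a minimum mean of 5 FPKM, rescaling to a common total, quantile normalization, voom on recovered reads, the replicate number as a block, and leaving out each library. Of 84 values for the 6 tested genes, all kept their direction, 77 did not pass and 7 passed. The filter settings and the replicate block change only the p-values, so for them the direction could not differ. Rescaling gave 826 genes higher and 484 lower, with 4 of the 6 genes passing at log2 differences of 0.19 (PGRP-SA), 0.53 (PGRP-SD), 0.34 (PGRP-LC) and 0.37 (PGRP-LF), and it moved the median over all genes to 0.082. Voom gave 485 higher genes and passed 2 of the 6, PGRP-SD at 0.44 and PGRP-LC at 0.25. Rescaling raised overexpression values relative to controls, whose FPKM totals were higher (694593 to 708815, against 646862 to 668227 in overexpression libraries). Why the totals differed and why voom passed more genes was not tested. Leaving out 1 library gave 135 to 286 genes higher and 428 to 628 lower, with counts more than 1.5 times below those reported without overexpression replicate 3 (135 and 428), control replicate 1 (164 and 458) or control replicate 2 (156 and 442), and 0 to 1 of the 6 genes passing. PGRP-SD ranged from 0.32 to 0.62 and passed without overexpression replicate 2. Same-numbered libraries did not deviate together (correlations of 0.046, -0.076 and 0.026 for replicates 1, 2 and 3), so the numbers were not read as pairs. With the replicate block 219 genes were higher and 616 lower, and 0 of the 6 passed. PGRP-LD, with 61 reads in all, is limited by depth and by exons shared with Pmi.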
